A study of Arabidopsis thaliana with 7 samples.

Results

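The transcripts of 10 Arabidopsis genes that encode exoribonucleases, subunits of the RNA exosome and its helicases were followed in seedlings with and without an insertion in HOT3, which encodes eIF5B1, a translation initiation factor. The genes were chosen by name for their work on RNA ends, in particular on ribosomal RNA (rRNA) precursors, by a rule that uses no value of these data, though earlier results of the data were known when it was made. They are 10 of the 27655 genes in the count tables, and all 10 passed the filter on low counts that left 20795 genes for testing. Seedlings of Arabidopsis thaliana were 18 days old, had grown at 23°C under 16 h of light and 8 h of dark, and were taken whole for sequencing of their poly(A) RNA. The 7 libraries comprised 2 of wild type (WT, Columbia), 3 of hot3-2 and 2 of hot3-3. Both mutants carry a T-DNA insertion in HOT3 and each is a single insertion line. The labels record no other allele, transgene or treatment, and all libraries were made from seedlings of the same age. The study describes late germination and slow early growth of hot3 mutants, so the same age need not be the same stage. The part of stage in the results was not tested.

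Ribosomal RNA is cut out of a long precursor in the nucleolus, and the ends left by these cuts are then trimmed back to the mature ends. Enzymes of the XRN family digest RNA from its 5′ end. The RNA exosome, a barrel of core subunits that joins catalytic subunits, digests RNA from its 3′ end, with helicases that unwind and feed the substrate. Plants have several copies of many of these enzymes, and the copies work in different compartments. eIF5B joins the ribosomal subunits at the start of translation, and in yeast it also takes part in the last cleavage that frees the 3′ end of 18S rRNA. The libraries hold polyadenylated RNA, so the levels described here are those of the mRNAs of the enzymes and not of the rRNA they act on.

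The total count per library lay between 14090881 (hot3-2) and 34696683 (hot3-3), and no 2 replicates were alike within counting noise. The labels do not say whether the replicates came from separate cultures, so the P values measure only the spread between these samples. HOT3 itself (AT1G76810) stood at 171 and 169 CPM (counts per 1e+06 of the normalised library size) in WT, at 77.7, 97.4 and 92.5 CPM in hot3-2, and at 195 and 271 CPM in hot3-3. Its count was therefore lower in hot3-2 and not lower in the libraries labelled hot3-3, for which it gives no check of the label, and hot3-3 below means the libraries so labelled. Leaf markers were abundant in every library, with a summed level over 4 genes of 34500 to 36800 CPM in WT, 26300 to 26700 CPM in hot3-2 and 23600 to 24600 CPM in hot3-3. The sum of 2 root markers was 1290 to 1380, 1970 to 2430 and 2220 to 2320 CPM, and that of 2 seed storage genes was 48.6 to 116, 15.8 to 35.2 and 211 to 357 CPM. Not all genes of a sum moved with it: of the root markers, PYK10 was higher (log2 0.73 and 0.78 in hot3-2 and hot3-3) and SCR stood at 0.03 and -0.05, and the leaf marker PSAD-1 stood at 0.01 and -0.07. The sum of 3 floral genes stayed at or below 3.18 CPM, and no marker was at 0 in all libraries of a genotype. These sums moved with the genotypes, their part in the results below was not tested, and in whole seedlings a change in the share of a cell type cannot be told apart from a change in RNA per cell.

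Of the 10 genes, 6 were higher in hot3-2 than in WT, and the same 6 were higher in hot3-3: XRN2, MTR4, HEN2, RRP6L2, RRP41 and RRP4. The quasi-likelihood test of edgeR was used with a threshold of 0.01 on the adjusted P, which 18.8% of all tested genes passed as higher in hot3-2 and 19.5% in hot3-3. None of the 10 was lower in either allele by this test, beside 15.0% and 16.2% of all tested genes. With 10 genes this absence is near those shares and is not read as a result. None was lower by DESeq2 or at an unadjusted P below 0.05 in edgeR either, limits at which the share of all tested genes was not counted. RRP41 and RRP4 also reached a log2 fold change of 1 in both alleles, a limit reached by 7.8% of tested genes in hot3-2 and by 9.63% in hot3-3. The median log2 fold change of the 10 genes was 0.37 in hot3-2 and 0.50 in hot3-3, beside 0.00 and 0.01 over all tested genes. In 7 of the 10 genes all 5 mutant libraries lay above both WT libraries, which held for 29.6% of tested genes. Both alleles were compared with the same WT libraries, so the 2 comparisons are not independent.

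**Figure D1:**
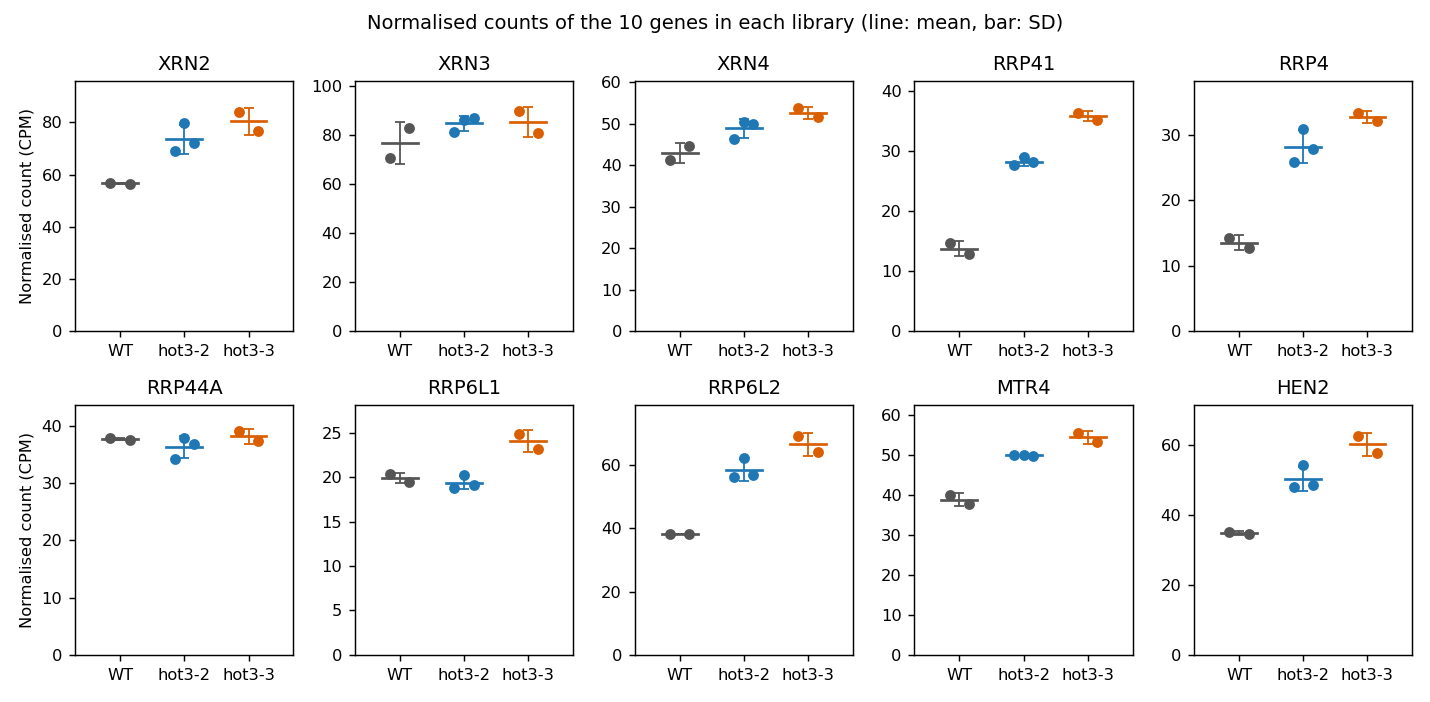
Normalised count (CPM, vertical axis from 0) of each of the 10 genes in every library, grouped by genotype, with points for libraries, a line for the mean and a bar for the SD (n = 2 WT, 3 hot3-2 and 2 hot3-3). RRP41 and RRP4 rise from 12.7 to 14.6 CPM in WT to 25.9 CPM or more in every mutant library, whereas the RRP44A points stay between 34.2 and 39.1 CPM in all genotypes.

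**Figure D2:**
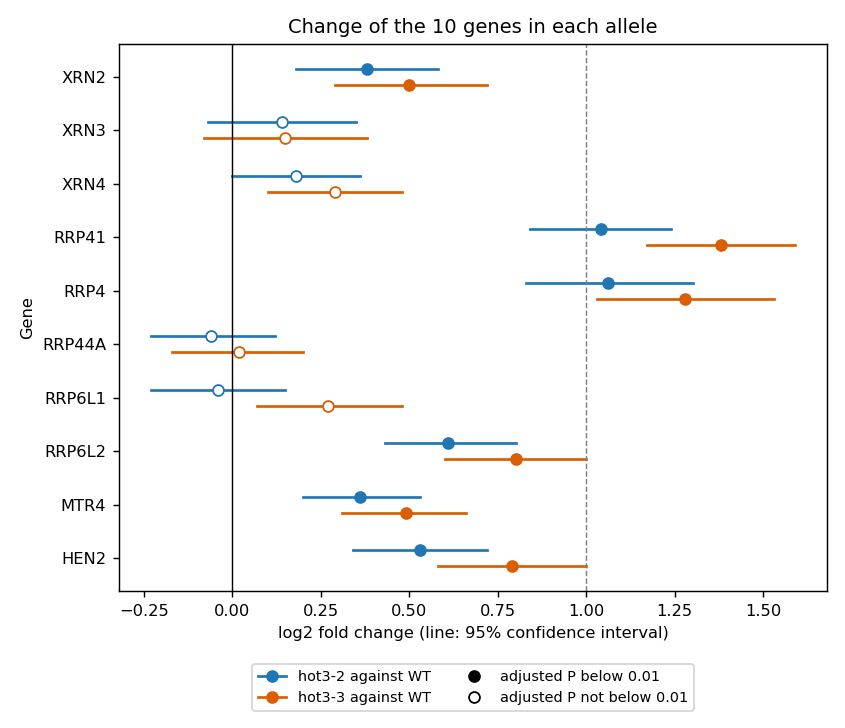
Log2 fold change against WT (horizontal axis) of the 10 genes in hot3-2 (blue) and hot3-3 (orange), with lines for 95% confidence intervals and filled points where the adjusted P of edgeR was under 0.01. The dashed line marks a log2 fold change of 1, which the points of RRP41 and RRP4 exceed in both alleles.

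Among the enzymes that digest from the 5′ end, XRN2 rose in both alleles. XRN2 (AT5G42540, chromosome 5 from 17007366 to 17014846, plus strand) encodes a nuclear enzyme that trims pre-rRNA. Its level was 56.7 and 56.5 CPM in WT, 69.0, 79.8 and 71.9 CPM in hot3-2, and 84.1 and 76.6 CPM in hot3-3, so that the mutant libraries did not overlap with WT while the alleles overlapped with each other. The log2 fold change was 0.38 ± 0.09 (SE, adjusted P = 0.0064, edgeR) in hot3-2 and 0.50 ± 0.10 (adjusted P = 0.00194, edgeR) in hot3-3. The hot3-2 call was lost when any of WT replicate 1, WT replicate 2 or hot3-2 replicate 1, 2 or 3 was left out, with adjusted P from 0.0117 to 0.0365 in edgeR, and also with plain library totals (0.0187) or with hot3-2 and WT fitted alone (0.011). The hot3-3 call was lost without WT replicate 2 (adjusted P = 0.0107, edgeR) or hot3-3 replicate 1 (adjusted P = 0.0163, edgeR).

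XRN3 (AT1G75660, chromosome 1 from 28408134 to 28415118, plus strand), the other nuclear XRN, is required for viability in Arabidopsis. Its level was 70.7 and 83.1 CPM in WT, 81.2, 86.4 and 87.0 CPM in hot3-2, and 89.9 and 81.0 CPM in hot3-3. The genotypes overlapped, and neither log2 fold change (0.14 ± 0.09 and 0.15 ± 0.10, SE) passed the test, with 95% intervals of -0.07 to 0.35 and -0.08 to 0.38. XRN4 (AT1G54490, chromosome 1 from 20350109 to 20356916, plus strand) degrades decapped mRNA in the cytoplasm. Its level was 41.3 and 44.7 CPM in WT, 46.3, 50.4 and 49.9 CPM in hot3-2, and 53.7 and 51.6 CPM in hot3-3. The 3 genotypes did not overlap for XRN4, but the log2 fold changes of 0.18 ± 0.08 (SE, adjusted P = 0.0846, edgeR) and 0.29 ± 0.09 (adjusted P = 0.0193, edgeR) missed the threshold. The proteins of XRN2 and XRN3 are identical at 59.1% of 990 aligned residues, and the coding sequences of no 2 XRN genes share a stretch of 100 bases, so reads of each could be assigned to it.

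The largest changes were those of both core exosome subunits. RRP41 (AT3G61620, chromosome 3 from 22801215 to 22804104, minus strand) encodes a subunit of the barrel that in plants keeps a catalytic activity of its own. Its level was 14.6 and 12.9 CPM in WT, 27.6, 29.0 and 28.1 CPM in hot3-2, and 36.4 and 35.2 CPM in hot3-3. The libraries fell into 3 separate ranges, lowest in WT and highest in hot3-3. RRP41 was 2.05-fold higher in hot3-2 (log2 1.04 ± 0.09, SE, adjusted P = 1.85e-05, edgeR) and 2.60-fold higher in hot3-3 (log2 1.38 ± 0.09, adjusted P = 4.91e-06, edgeR).

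RRP4 (AT1G03360, chromosome 1 from 824517 to 826399, plus strand) encodes a subunit of the cap through which RNA enters the barrel. Its level was 14.3 and 12.7 CPM in WT, 25.9, 30.9 and 27.8 CPM in hot3-2, and 33.4 and 32.1 CPM in hot3-3. RRP4 thus showed the same order of genotypes without overlap. It was 2.09-fold higher in hot3-2 (log2 1.06 ± 0.10, SE, adjusted P = 4.43e-05, edgeR) and 2.43-fold higher in hot3-3 (log2 1.28 ± 0.11, adjusted P = 1.76e-05, edgeR). The limit of 1 was barely met in hot3-2: without WT replicate 2 the log2 fold changes were 0.91 for RRP41 and 0.94 for RRP4, and without hot3-2 replicate 2 RRP4 also fell just below the limit, while both genes stayed past the test itself.

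RRP44A (AT2G17510, chromosome 2 from 7609236 to 7616342, minus strand), which supplies a catalytic site to the exosome, showed no comparable difference. Its level was 37.9 and 37.6 CPM in WT, 34.2, 37.9 and 36.8 CPM in hot3-2, and 39.1 and 37.3 CPM in hot3-3. The genotypes overlapped and the log2 fold changes were -0.06 ± 0.08 (SE, 95% interval -0.23 to 0.12) in hot3-2 and 0.02 ± 0.08 (95% interval -0.17 to 0.20) in hot3-3, where the sign turned under several settings. The 95% intervals of RRP44A thus ended at 0.20 or lower, while those of RRP41 and RRP4 began at 0.83 or higher.

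RRP6L1 and RRP6L2 are nuclear exonucleases that trim RNA from the 3′ end, and of the pair RRP6L2 passed the test. A further relative, RRP6L3 (AT2G32415), stood at a log2 of 0.12 ± 0.11 (SE) in hot3-2 and 0.29 ± 0.11 in hot3-3 and did not pass. RRP6L2 (AT5G35910, chromosome 5 from 14029574 to 14035493, minus strand) is found in the nucleolus and takes part in rRNA processing. Its level was 38.1 and 38.1 CPM in WT, 56.2, 62.3 and 56.7 CPM in hot3-2, and 69.1 and 63.9 CPM in hot3-3, again in 3 ranges without overlap. RRP6L2 rose 1.53-fold in hot3-2 (log2 0.61 ± 0.08, SE, adjusted P = 0.000286, edgeR) and 1.74-fold in hot3-3 (log2 0.80 ± 0.09, adjusted P = 7.65e-05, edgeR).

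RRP6L1 (AT1G54440, chromosome 1 from 20322964 to 20328238, plus strand), which acts on non-coding RNA and in RNA-directed DNA methylation, stood at 20.3 and 19.5 CPM in WT, at 18.8, 20.2 and 19.1 CPM in hot3-2, and at 24.9 and 23.2 CPM in hot3-3. WT and hot3-2 overlapped (log2 -0.04 ± 0.08, SE, adjusted P = 0.73, edgeR), and both hot3-3 libraries were above them without passing the test (log2 0.27 ± 0.09, adjusted P = 0.0307, edgeR). Per length, the ratio of RRP6L2 to RRP6L1 in TPM (transcripts per 1e+06, computed from the counts and the deposited gene lengths) was 1.85 and 1.93 in the WT libraries, 2.94, 3.03 and 2.92 in those of hot3-2, and 2.73 and 2.71 in those of hot3-3. The ratio was higher in all 5 mutant libraries. The exact two-sided permutation P was 0.2 for hot3-2 and 0.333 for hot3-3, the smallest that these numbers of libraries allow. The proteins are identical at 62.5% of 616 aligned residues, with no coding stretch of 100 bases in common.

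Both helicases rose in both alleles. MTR4 (AT1G59760, chromosome 1 from 21984428 to 21990286, minus strand) is the nucleolar helicase that serves the exosome in rRNA processing. Its level was 40.0 and 37.8 CPM in WT, 50.0, 50.2 and 49.8 CPM in hot3-2, and 55.6 and 53.4 CPM in hot3-3, with no overlap between genotypes. The log2 fold changes were 0.36 ± 0.07 (SE, adjusted P = 0.00281, edgeR) and 0.49 ± 0.08 (adjusted P = 0.000779, edgeR). The hot3-2 call for MTR4 was lost without WT replicate 2 (adjusted P = 0.0197, edgeR), hot3-2 replicate 1 (adjusted P = 0.0143, edgeR) or hot3-2 replicate 3 (adjusted P = 0.0155, edgeR).

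HEN2 (AT2G06990, chromosome 2 from 2894904 to 2902020, plus strand) is the helicase of the nucleoplasm and serves the exosome in the decay of mRNA precursors and non-coding transcripts. Its level was 35.2 and 34.5 CPM in WT, 48.1, 54.4 and 48.6 CPM in hot3-2, and 62.6 and 57.8 CPM in hot3-3, so that the 3 genotypes did not overlap. HEN2 rose 1.44-fold in hot3-2 (log2 0.53 ± 0.09, SE, adjusted P = 0.000841, edgeR) and 1.73-fold in hot3-3 (log2 0.79 ± 0.09, adjusted P = 0.000108, edgeR). Within each library the ratio of HEN2 to MTR4 per length was 0.667 and 0.693 in the WT libraries, 0.731, 0.823 and 0.741 in those of hot3-2, and 0.856 and 0.823 in those of hot3-3. The ratio was above WT in every mutant library, with the exact permutation P again at the smallest possible. HEN2 shares 151 bases with an opposite-strand gene (AT2G07000), RRP44A does so over 43, RRP41 over 17 and MTR4 over 6, and since the strand setting of the counting is not given in the sources used here, reads there may not be told apart.

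The starts of the 10 genes were searched for motifs found in many plant genes of ribosome production. The telo box (AAACCCTA) and site II (TGGGCC or TGGGCT) were looked for on both strands from 250 bases before to 50 bases after the annotated start, in TAIR10.1 of RefSeq. In the 10 genes no telo box shared a letter with a site II. The telo box was found in 3 of the 10 genes and site II in 6 of 10. The shares were 6.22% and 21.7% of the 27444 protein-coding nuclear genes in the count tables. Those include genes below the filter on low counts, which all 10 genes passed. Of 32 further genes of RNA processing and decay, described below, 3 held a telo box, 12 held site II and 0 held both. Among the 10 genes, HEN2, RRP6L2 and RRP4 held both, which 2.2% of the 27444 genes did. All 3 of these rose in both alleles, but so did RRP41 and XRN2, which held neither motif, and of the genes that held site II only, MTR4 rose in both alleles while XRN3 and XRN4 did not pass the test. Windows of 30 bases around the telo box, read along the gene, show that it lies just inside each of the 3 transcripts. Capitals mark the copies of both motifs that lie wholly inside a window. The HEN2 window starts within a site II copy, whose last letters are in lower case there. The windows are shown because they hold a motif that these 3 genes share:
RRP4 (chr1:824508-824537, plus strand): caaataacacaAAACCCTAgaattcattca
HEN2 (chr2:2894900-2894929, plus strand): ccaatagatatAAACCCTAagaactcagta
RRP6L2 (chr5:14035458-14035487, minus strand): taatgttcctaAAACCCTAgccaAGCCCAg

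The 150 bases before the annotated start are given for 4 genes that differ in motif and in response, RRP4 and HEN2 (both motifs, higher in the mutants), RRP41 (no motif, higher in the mutants) and XRN4 (site II only, not past the test). Capitals mark site II on either strand, where AGCCCA and GGCCCA are the motif read on the other strand:
RRP4 (chr1:824367-824516, plus strand): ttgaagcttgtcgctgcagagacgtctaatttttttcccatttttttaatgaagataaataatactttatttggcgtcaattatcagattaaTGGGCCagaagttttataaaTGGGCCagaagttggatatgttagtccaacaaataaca
HEN2 (chr2:2894754-2894903, plus strand): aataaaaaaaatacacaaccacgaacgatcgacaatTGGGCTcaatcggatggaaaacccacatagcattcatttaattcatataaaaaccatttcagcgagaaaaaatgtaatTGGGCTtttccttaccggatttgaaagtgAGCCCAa
RRP41 (chr3:22804105-22804254, minus strand): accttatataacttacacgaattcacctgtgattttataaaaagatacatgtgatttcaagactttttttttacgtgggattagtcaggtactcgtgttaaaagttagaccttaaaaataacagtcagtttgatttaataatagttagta
XRN4 (chr1:20349959-20350108, plus strand): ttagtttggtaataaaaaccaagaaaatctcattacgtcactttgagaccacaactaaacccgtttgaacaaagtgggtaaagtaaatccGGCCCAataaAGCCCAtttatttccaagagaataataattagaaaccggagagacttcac

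In RRP4 both site II copies face along the gene, in HEN2 they lie on either strand, and in XRN4 both copies are on the opposite strand. A match of letters describes the sequence only. Nothing was measured here on what binds these sites.

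Compared per length, the order of the 10 genes differed between WT and the mutants. In WT, XRN3 was the most abundant at 32.9 ± 3.67 TPM (SD, n = 2), followed by XRN2 at 24.1 ± 0.0941 TPM, RRP6L2 at 19.1 TPM, XRN4 at 18.3 TPM, MTR4 at 17.8 TPM and RRP44A at 17.2 TPM. The libraries of XRN4 and MTR4 overlapped in level, as did those of MTR4 and RRP44A, so the order in the middle is not resolved. RRP41 (15.4 ± 1.40 TPM) and RRP4 (15.3 ± 1.32 TPM) stood near the low end in WT and did not differ beyond their spread, above HEN2 at 12.1 TPM and RRP6L1 at 10.1 TPM.

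In hot3-3 RRP41 came first at 40.3 ± 1.84 TPM (SD, n = 2), followed by RRP4 at 37.4 ± 1.80 TPM, XRN3 at 36.8 ± 3.47 TPM, XRN2 at 34.4 TPM and RRP6L2 at 33.6 TPM. RRP4 overlapped with XRN3, XRN3 with XRN2, and XRN2 with RRP6L2. In hot3-2, XRN3 (34.3 ± 2.15 TPM, SD, n = 3) overlapped with RRP4 (30.3 ± 3.64 TPM), and RRP4 with RRP41 (29.8 ± 1.61 TPM). RRP44A was ninth in both mutants, at 15.7 ± 1.28 TPM in hot3-2 and 17.5 ± 0.946 TPM in hot3-3, and RRP6L1 was last in all genotypes.

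The ratio of RRP41 to RRP4 per length, both members of the same complex, was 1.01 and 1.0 in the WT libraries, 1.05, 0.924 and 0.996 in those of hot3-2, and 1.08 and 1.08 in those of hot3-3. It stayed close to 1 in every library. The ratio of RRP41 to RRP44A was 0.947 and 0.841 in the WT libraries, 1.98, 1.87 and 1.87 in those of hot3-2, and 2.29 and 2.31 in those of hot3-3. XRN2 to XRN3 was 0.796 and 0.676 in the WT libraries, 0.845, 0.919 and 0.821 in those of hot3-2, and 0.930 and 0.940 in those of hot3-3. For both of these ratios every mutant library was above WT, and the exact two-sided permutation P was 0.2 in hot3-2 and 0.333 in hot3-3, the smallest these numbers of libraries can give.

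**Figure D3:**
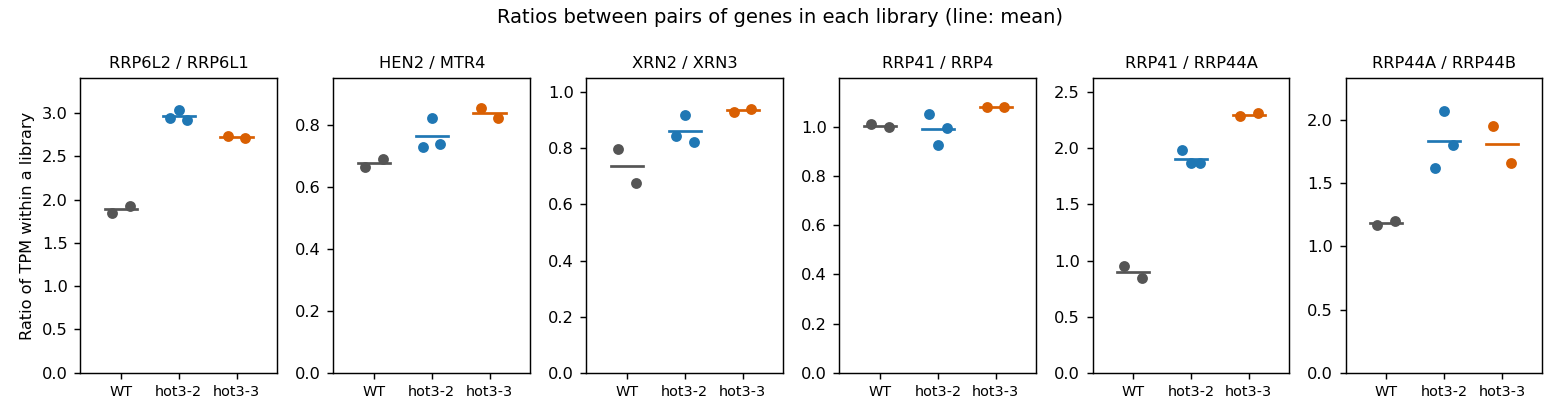
Ratio of the TPM of 2 genes within each library (vertical axes from 0), for 6 pairs, with points for libraries grouped by genotype and lines for means. RRP41 to RRP4 lies between 0.924 and 1.08 in all libraries, whereas RRP41 to RRP44A is 0.947 or lower in WT and 1.87 or higher in the mutants.

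The other subunits of the exosome core were next compared, from a list of 32 further genes of RNA processing and decay written from general knowledge. With RRP41 and RRP4, 11 core subunit genes were tested, of which 9 were higher in hot3-2 and 10 in hot3-3, beside 18.8% and 19.5% of all tested genes. None was lower by edgeR's quasi-likelihood test, beside 15.0% and 16.2% of all tested genes. None was lower by DESeq2 or at an unadjusted P below 0.05 in edgeR, where that share was not counted. With 11 genes the absence of lower ones is not read as a result. In all 11 every mutant library lay above both WT libraries, beside 29.6% of all tested genes. The median log2 fold change of the 11 was 0.95 in hot3-2 and 1.22 in hot3-3. Without RRP41 and RRP4, already described above, 7 of 9 were higher in hot3-2 and 8 of 9 in hot3-3, beside the same shares. The medians of these 9 were 0.93 and 1.07. The count of core subunits was chosen after the data were seen. RRP46 (AT3G46210), a barrel subunit, rose from 13.5 and 11.5 CPM in WT to 29.3, 28.2 and 30.3 CPM in hot3-2 and to 31.2 and 32.0 CPM in hot3-3 (log2 1.23 ± 0.09 and 1.34 ± 0.10, SE). RRP40A (AT2G25355), a cap subunit, rose from 5.97 and 5.06 CPM in WT to 12.2, 12.1 and 13.5 CPM in hot3-2 and to 13.3 and 13.9 CPM in hot3-3 (log2 1.20 ± 0.12 and 1.31 ± 0.13, SE).

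Further core subunits moved the same way by different amounts. The barrel subunits RRP42 (AT3G07750, log2 0.95 ± 0.15 in hot3-2 and 1.07 ± 0.16 in hot3-3, SE), RRP43 (AT1G60080, 0.74 ± 0.11 and 1.0 ± 0.11) and AT4G27490 (named RRP41L in the annotation, 1.03 ± 0.10 and 1.27 ± 0.10) rose in both alleles. So did CSL4 (AT5G38890), a cap subunit, at 0.93 ± 0.12 and 1.22 ± 0.13. The paralogs RRP45A (AT3G12990) and RRP45B (AT3G60500) rose in hot3-3 alone by the test (0.49 ± 0.11 and 0.59 ± 0.14) and stood at 0.36 ± 0.11 and 0.34 ± 0.13 in hot3-2. RRP40B (AT4G32175) rose in hot3-2 (0.54 ± 0.13) and stood at 0.35 ± 0.14 in hot3-3. None of these 3 differed between the alleles by the test of that difference (adjusted P from 0.249 to 0.447, edgeR). The median level of the 11 subunits per length was 12.7 and 12.3 TPM in WT, 19.3, 18.9 and 17.4 TPM in hot3-2, and 21.0 and 21.3 TPM in hot3-3.

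**Figure D4:**
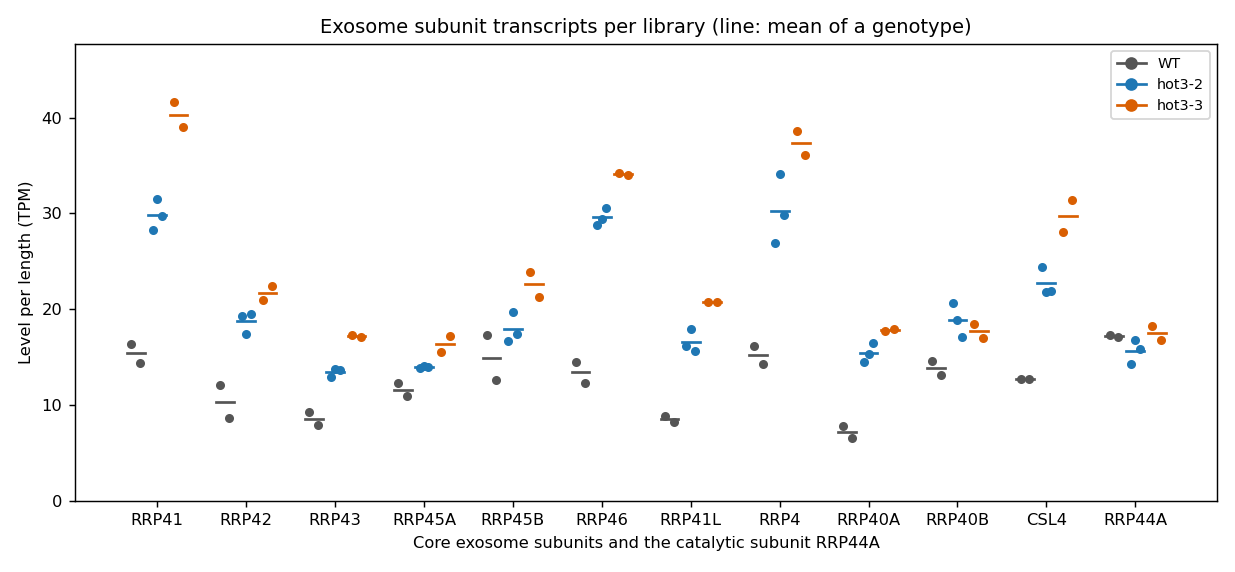
Level per length (TPM, vertical axis from 0) of the 11 core exosome subunits and of RRP44A in every library, coloured by genotype, with lines for means. In RRP41, RRP46 and RRP4 the mutant points reach 26.9 TPM or more against 16.4 TPM or less in WT, and RRP44A spans 14.3 to 18.2 TPM over all libraries.

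The transcript of RRP44B (AT1G77680, also SOV), a relative of RRP44A, fell in both alleles. Its level was 38.8 and 37.8 CPM in WT, 25.3, 22.0 and 24.6 CPM in hot3-2, and 24.1 and 27.0 CPM in hot3-3, with no overlap between WT and the mutants. The log2 fold change was -0.67 ± 0.09 (SE, adjusted P = 0.000256, edgeR) in hot3-2 and -0.58 ± 0.10 (adjusted P = 0.000949, edgeR) in hot3-3. The ratio of RRP44A to RRP44B per length was therefore higher in the mutants, at 1.17 and 1.20 in the WT libraries, 1.62, 2.07 and 1.80 in those of hot3-2, and 1.95 and 1.66 in those of hot3-3.

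Of the 32 further genes, 16 were higher and 1 lower in hot3-2, and 16 were higher and 3 lower in hot3-3. The shares over all tested genes were 18.8% (higher) and 15.0% (lower) for hot3-2 and 19.5% and 16.2% for hot3-3. Of these, 14 were higher in both alleles and RRP44B alone was lower in both. The share of all tested genes past the test in both alleles was not counted. Both comparisons also use the same WT libraries, so these joint counts are not read as an excess. The other genes lower in hot3-3, chosen after their values were seen, were ZCCHC8A (AT5G38600, -0.56 ± 0.14 on the log2 scale, SE), which encodes an exosome cofactor, and URT1 (AT2G45620, -0.47 ± 0.09), an enzyme that adds uridines to mRNA ends. The median log2 fold change of the 32 genes was 0.34 in hot3-2 and 0.35 in hot3-3. The count past the test in hot3-2 dropped from 17 to 11 without WT replicate 2, and that in hot3-3 from 19 to 12 without hot3-3 replicate 2. The strongest call was NOB1 (AT5G41190), the endonuclease that makes the mature 3′ end of 18S rRNA. NOB1 stood at 41.3 and 39.5 CPM in WT, at 91.5, 94.0 and 98.9 CPM in hot3-2 and at 101 and 105 CPM in hot3-3 (log2 1.23 ± 0.08 and 1.35 ± 0.08, SE). All 5 mutant libraries lay above both WT libraries.

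Among 9 exosome cofactors, 4 were higher in hot3-2 and 3 in hot3-3, with 1 lower in hot3-3, to be read against the same shares over all tested genes (18.8% and 19.5% higher, 16.2% lower in hot3-3). SMO4 (AT2G40430), a nucleolar cofactor of rRNA processing, stood at 62.9 and 57.5 CPM in WT, at 113, 118 and 117 CPM in hot3-2 and at 132 and 121 CPM in hot3-3 (log2 0.95 ± 0.08 and 1.07 ± 0.09, SE). SMO4 shares 314 bases with an opposite-strand gene. TRL (AT5G53770), a poly(A) polymerase that tags nuclear RNA for the exosome, rose by 0.62 ± 0.08 and 0.81 ± 0.09 on the log2 scale. Of the Ski proteins, which serve the cytoplasmic exosome, SKI8 (AT4G29830) was higher in both alleles (log2 0.51 ± 0.09 and 0.54 ± 0.09, SE), while SKI2 and SKI3 did not pass the test in either. SKI8 shares 616 bases with an opposite-strand gene of a long non-coding RNA and 85 with another opposite-strand gene, AT4G29840. Of 9 genes of the XRN pathway and decapping, 4 were higher in each allele, beside those 18.8% and 19.5%, and none passed as lower in edgeR, where the decapping enzyme DCP2 stood at -0.36 ± 0.10 on the log2 scale in hot3-3 (SE, adjusted P = 0.0139).

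**Figure D5:**
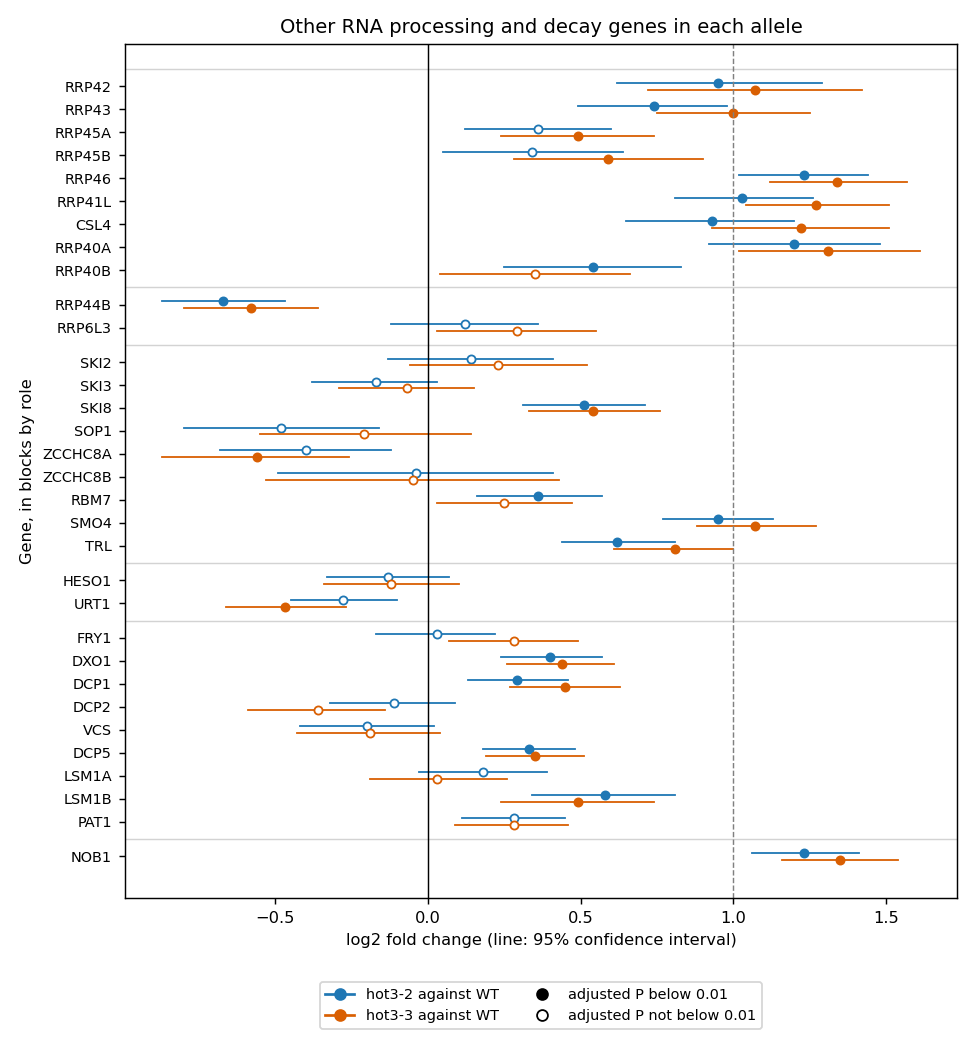
Log2 fold change against WT (horizontal axis) of the 32 further genes in hot3-2 (blue) and hot3-3 (orange), in blocks by role from the core exosome at the top to NOB1 at the bottom, with lines for 95% confidence intervals and filled points where the adjusted P of edgeR was under 0.01. All core exosome points lie to the right of 0, RRP44B lies at -0.67 and -0.58, and NOB1 at 1.23 and 1.35.

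The alleles were also compared directly. None of the 10 genes passed the test between hot3-3 and hot3-2 in edgeR's quasi-likelihood test or in DESeq2. In edgeR 2.25% of all tested genes did. At an unadjusted P below 0.05, 5 of the 10 were higher in hot3-3 in edgeR. The share of all tested genes at that limit was not counted, so this count is not read as an excess. In 7 of the 10 both hot3-3 libraries lay above all 3 hot3-2 libraries, which held for 22.6% of tested genes. The fitted difference was above 0 in all 10, from 0.01 to 0.34 with a median of 0.16, beside a median of -0.003 over all tested genes. RRP41 differed most, at a log2 of 0.34 ± 0.08 (SE, 95% interval 0.16 to 0.52, adjusted P = 0.0302, edgeR), followed by RRP6L1 at 0.31 ± 0.08 (95% interval 0.13 to 0.50, adjusted P = 0.046, edgeR). RRP41 passed the threshold when only the alleles were fitted (adjusted P = 0.00983, edgeR). Over its 14 alternatives the adjusted P of RRP41 ran from 0.00983 to 0.158.

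The tested genes most like the 3 most changed of the 10 were found by Pearson's r of log2 CPM over the 7 libraries, among 15492 genes of at least 5 CPM. For RRP41 they were AT3G22660 (annotated as an rRNA processing protein), AT1G63810 (a nucleolar protein) and AT3G12670 (a CTP synthase), each at r = 0.999. For RRP4 they were AT3G58930 (an F-box protein), ADS4 (a fatty acid desaturase) and PARP2 (a poly(ADP-ribose) polymerase), each at r = 0.998. For RRP6L2 they were AT5G62370 and AT2G37400 (both with tetratricopeptide repeats, r = 0.997) and NRPC1, the largest subunit of RNA polymerase III (r = 0.996). The libraries share 3 genotypes, and such a likeness was common: 1504 genes reached r = 0.95 with RRP41, 1480 with RRP4 and 1150 with RRP6L2. Fewer genes did so with the members that did not pass the test: 122 with XRN4, 26 with RRP6L1, 8 with RRP44A and 6 with XRN3.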

How the data were processed

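Poly(A) RNA of 7 libraries (WT n = 2, hot3-2 n = 3, hot3-3 n = 2) was analysed, grouped by the sample labels. The tables held raw counts of read pairs per gene as deposited by the authors, 1 table per library, beside a gene length column. Per the study's methods, with versions from the submitters' processing notes, the authors used cutadapt 4.2 for trimming, STAR 2.7.10b for mapping to TAIR10 and featureCounts 2.0.3 for counting uniquely mapped pairs. The strand setting and annotation release are not given in the sources used here. Unique counting leaves out pairs that match near-identical genes. Total counts per library ran from 14090881 to 34696683, and intervals for the genes include counting error and the spread between libraries.

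Genes of low count were filtered by filterByExpr (minimum of 10), library sizes were scaled by TMM, and all libraries were fitted in 1 model with genotype as the factor in edgeR 4.0.16 (R 4.3.3). Contrasts were tested with the quasi-likelihood F test, two-sided, adjusted by Benjamini-Hochberg over all 20795 tested genes. The threshold was an adjusted P below 0.01, and the fold limit, that of the study, a log2 fold change of 1 or more either way. CPM is the count scaled to 1e+06 of the TMM-adjusted library size. TPM was computed here from the deposited lengths. The procedure was also run on counts simulated from the fitted values, with far fewer genes changed than passed the test here. That run therefore does not test the scaling or the error rate on these data. Positions and sequences are from the RefSeq annotation of TAIR10.1, in which 99.4% of 27445 matched genes had the deposited length, including all 10 genes. Proteins were translated and aligned with Biopython 1.88 in Python 3.11.15.

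The 10 genes and the list of 32 were chosen with earlier results of these data known. Of the 32, the text names those past the test alike in both alleles and not overlapping WT, at most the 10 of smallest P, and others where a count or paralog calls for it, which were chosen after their values were seen. Alternatives were DESeq2 1.42.0, other scalings, no filter, 2 groups only, a replicate block, thinned counts, an adjusted P of 0.05 and each library left out.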

Additional observations from a re-analysis of the deposited data

Results flagged for a closer look

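None of the 10 genes differed between the alleles past the threshold of an adjusted P below 0.01, but 4 of the genes used to check the samples did so in edgeR's quasi-likelihood test. HOT3 differed by 1.39 on the log2 scale (hot3-3 minus hot3-2, adjusted P = 0.00107), with means of 89.2 CPM in hot3-2 and 233 CPM in hot3-3. The seed storage genes CRA1 (3.45, adjusted P = 0.00225) and CRU3 (3.61, adjusted P = 0.00138) were higher in hot3-3, at means of 181 and 103 CPM against 16.9 and 8.69 CPM. The floral gene PI was lower in hot3-3 (-1.47, adjusted P = 0.00985), at 0.895 against 2.51 CPM.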

How the results depend on the processing

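Over 14 alternatives for each of the 10 genes in the 3 comparisons, 398 values kept their direction and side of the threshold, 14 lost the call, 1 gained it and 7 changed sign. The sign changes concerned values near 0. RRP44A in hot3-3 against WT (0.02) became -0.0005 with only the 2 groups compared and -0.0021 with thinned counts, and ran from -0.02 to 0.05 over the libraries left out. XRN3 between the alleles ran from -0.07 to 0.08. The number of the 10 genes past the test was 4 to 6 in hot3-2 and 5 to 6 in hot3-3 with 1 library left out, and those with the fold limit in hot3-2 numbered 0 to 2 (0 without WT replicate 2, 1 without hot3-2 replicate 2), and 1 with plain library totals. Between the alleles 1 of the 10 passed with only the 2 groups compared and 2 passed at an adjusted P below 0.05. Of the 32 further genes, 11 to 16 passed in hot3-2 and 12 to 18 in hot3-3 (in place of 17 and 19) with 1 library left out, and 12 in hot3-3 with only the 2 groups compared. Among all genes, 4932 in place of 7415 passed in hot3-3 with only the 2 groups compared. Between the alleles 468 passed, against 1017 with DESeq2, 922 with no filter, 1025 with only the 2 groups compared, 189 with the replicate block, 1937 at an adjusted P below 0.05, and 49 to 1079 with 1 library left out (49 without hot3-2 replicate 3). The core exosome count, an alternative chosen after seeing the data, was 8 to 9 of 11 in hot3-2 and 8 to 10 in hot3-3.

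Replicate numbers were not taken as pairs in the main fit. Deviations of same-numbered WT and mutant libraries correlated at 0.0314 to 0.0468, those of the alleles at 0.181 and 0.151. In a group of 2 libraries the deviations mirror each other, so these values are not independent. Whether libraries of the same number shared a batch was not tested. With the replicate block XRN2 (adjusted P = 0.0289, edgeR) and MTR4 (adjusted P = 0.0218, edgeR) lost their calls in hot3-2, where 4 of the 10 genes passed. The cause of these shifts was not tested. For XRN4 in hot3-3 the adjusted P was 0.0181 with counts thinned to the smallest library, against 0.0193 (edgeR). It was larger with only the 2 groups compared (0.0508, edgeR), with the replicate block (0.052, edgeR) and in DESeq2 (0.0611).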
